A study of Mus musculus with 9 samples.

Results

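Casp6 belongs to the caspase cascade of apoptosis, and 6 genes of this pathway were followed here in sorted lung neutrophils. They were the initiator caspases Casp2, Casp8 and Casp9, the adaptor Apaf1, an executioner caspase, Casp6, and the caspase inhibitor Xiap. The 6 genes were picked by name, because Casp6 stood much higher in neutrophils from metastatic lung than in those from normal lung, so both comparisons with normal lung are given below as description without a test. They are 6 of 18325 genes with values, and all 6 were among the 14108 genes that passed the filter on low counts. Each had a row in both deposited tables.

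RNA from neutrophils was sequenced in 9 libraries, 3 per group, all from female BALB/c mice. The Ly6Ghi libraries hold Ly6Ghigh neutrophils and the Ly6Glow libraries Ly6Glow neutrophils, both sorted from lungs at the macrometastatic stage after 4T1-LM3 cells were put into the mammary fat pad. 4T1-LM3 is a mouse mammary carcinoma line selected in vivo from 4T1 for growth in the lung. The NL libraries hold Ly6Ghigh neutrophils from lungs of mice without tumor, and there is no Ly6Glow group from normal lung. All cells were sorted as CD45+ cells by surface Ly6g after collagenase digestion of the lung. The description field of the NL libraries names only Ly6Ghigh neutrophils, so their assignment rests on the title and treatment fields. The labels call the replicates biosamples without saying whether mice were pooled and give no age at collection, and the p-values cover only the spread between these libraries.

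Total counts were 15267177 to 17841807 per library, and correlations of log2 CPM were at least 0.9905 within a group and at most 0.975 between groups. NL replicate 2 differed from the other NL libraries by more than sampling noise, with a chi-square per degree of freedom of 5.36 and 4.09 against 1.47 between NL replicates 1 and 3. All 9 neutrophil markers had counts in every group, and their summed level was 70968 to 72812 CPM (counts relative to the TMM-scaled library size) in Ly6Ghi, 76260 to 77974 CPM in Ly6Glow and 18252 to 18514 CPM in NL. Ly6g mRNA itself was 374 ± 10.8 CPM in Ly6Ghi, 394 ± 9.32 CPM in Ly6Glow and 119 ± 1.403 CPM in NL (SD, n = 3). In deposited FPKM, which are length-normalized, it was 409 ± 11.4 in Ly6Ghi, 366 ± 7.92 in Ly6Glow and 180 ± 3.02 in NL. Whether the Ly6Glow libraries were lower in the transcript that names their gate thus depends on the scaling. The lists of other cell types differed between the groups as well, some highest in NL and some in Ly6Ghi. Markers of epithelial and tumor cells (7 of 7 with counts) summed to 1068 to 1198 CPM in NL against 100.03 to 110 CPM in the 6 libraries from metastatic lung. Endothelial markers (5 of 5) summed to 910.3 to 975.2 CPM in NL against 132 to 169 CPM, and fibroblast markers (5 of 5) to 514 to 545 CPM against 49.4 to 57.6 CPM. Alveolar macrophage markers (12 of 12) summed to 1344 to 1366 CPM in NL, 408 to 424 CPM in Ly6Ghi and 126 to 131 CPM in Ly6Glow. Eosinophil markers (4 of 4) summed to 48.8 to 53.5 CPM in Ly6Ghi, 6.78 to 7.90 CPM in Ly6Glow and 2.78 to 3.92 CPM in NL, and basophil and mast cell markers (5 of 5) to 25.6 to 27.7, 13.4 to 16.3 and 2.70 to 2.92 CPM. B cell markers (5 of 5) summed to 46.3 to 47.3 CPM in Ly6Ghi, 28.1 to 30.04 CPM in Ly6Glow and 27.4 to 29.9 CPM in NL. Of the markers searched, only the erythroid genes Hba-a2 and Hbb-bt were at 0 in a whole group. The part of this composition in the differences from NL, or in those between Ly6Glow and Ly6Ghi, was not tested. In bulk libraries, fewer cells of a type and less RNA per cell cannot be told apart.

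**Figure D1:**
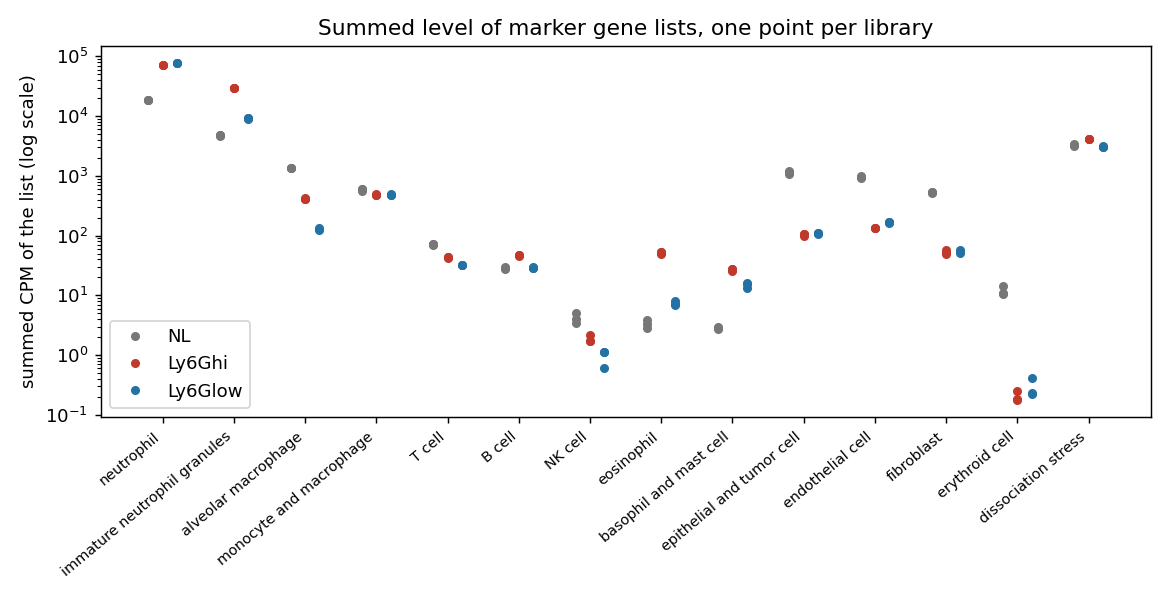
Summed CPM (log scale) of each marker gene list in the 9 libraries, with grey points for NL, red for Ly6Ghi and blue for Ly6Glow. The neutrophil list lies at 18252 to 18514 CPM in NL and at 70968 CPM or more elsewhere, while the epithelial, endothelial and fibroblast lists are highest in NL.

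Apoptosis runs through a cascade of caspases, proteases that cleave after aspartate. Initiator caspases are activated on platforms: Casp8 on death receptors, Casp9 on the Apaf1 apoptosome that forms when mitochondria release cytochrome c, and Casp2 on the PIDDosome. They start the cleavage of executioner caspases such as Casp6, which is best known for cleaving lamin A in the nuclear envelope. Xiap binds and blocks Casp9, and is not known as an inhibitor of Casp6. Neutrophils are short-lived cells that die by apoptosis as a rule, and mRNA levels do not report whether a caspase is active.

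In the GRCm38 annotation (the mm10 build named by the submitters), Casp6 lies at chr3:129901425-129914103 on the plus strand and Casp9 at chr4:141793612-141815976 on the plus strand. Casp2 spans chr6:42264985-42282508 (plus), Casp8 chr1:58795374-58847503 (plus), Apaf1 chr10:90989311-91082770 (minus) and Xiap chrX:42059679-42109656 (plus). Casp9 shares 94 exon bases with Cela2a and Ctrc on the other strand, and since the strand setting of the counting is not given in the sources used here, reads from that stretch could not be assigned. No other member shares exon bases with another gene. The 250 bases upstream of the RefSeq start (build GRCm38.p6) are shown for Casp6, the member with the largest difference from normal lung, and for Casp9, whose difference was far smaller and whose window held the most GC boxes of the 6 genes. They come from chr3:129901165-129901414 and chr4:141793362-141793611, both read on the plus strand 5′ to 3′, with motif matches in capitals.
Casp6 upstream: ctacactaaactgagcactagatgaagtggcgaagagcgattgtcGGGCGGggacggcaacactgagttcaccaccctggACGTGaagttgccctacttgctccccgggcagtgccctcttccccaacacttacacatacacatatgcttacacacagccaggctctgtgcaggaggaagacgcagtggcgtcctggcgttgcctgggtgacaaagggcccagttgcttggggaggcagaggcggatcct
Casp9 upstream: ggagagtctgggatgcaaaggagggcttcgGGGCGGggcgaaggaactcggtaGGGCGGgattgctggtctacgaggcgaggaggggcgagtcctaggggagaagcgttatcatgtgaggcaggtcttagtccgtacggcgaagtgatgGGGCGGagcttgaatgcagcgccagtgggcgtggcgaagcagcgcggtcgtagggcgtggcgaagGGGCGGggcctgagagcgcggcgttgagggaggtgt

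The motifs searched on both strands were the GC box GGGCGG, the CCAAT box CCAAT, the TATA box TATAAA, the hypoxia response core ACGTG and the AP-1 site TGAGTCA. None of these matches overlapped in the 2 windows shown. In Casp6 the capitals mark 1 GC box starting at -205 and 1 hypoxia response core starting at -170 from the start site. In Casp9 they mark 4 GC boxes, starting at -220, -197, -101 and -36. Over the 32851 promoter windows of the same 250 bases, 32.7% held the GC box, 16.6% the hypoxia response core, 33.8% the CCAAT box, 12.4% the TATA box and 4.46% the AP-1 site. The Casp6 window had a GC content of 58.4% with 11 CpG, the Casp9 window 66.0% with 25 CpG. The windows of Apaf1 (75.6% GC) and Casp8 (39.6% GC) were the richest and among the poorest in GC, with 2 GC boxes and 1 hypoxia response core in Apaf1 and 1 CCAAT box in Casp8. The windows of Casp2 and of the 3 annotated starts of Xiap are not shown. These are letter matches and say nothing of whether a factor binds.

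Casp6 had the widest range of the 6 genes over the 3 groups. Its level was 93.6, 94.9 and 92.8 CPM in the Ly6Ghi libraries, 184, 184 and 168 CPM in the Ly6Glow libraries and 6.65, 6.21 and 7.84 CPM in the NL libraries. The groups did not overlap, and the NL libraries, with 136 to 174 counts each, were lowest. On the length-normalized FPKM scale the order was the same, with 62.4 ± 0.722 in Ly6Ghi, 101 ± 4.99 in Ly6Glow and 6.33 ± 0.748 in NL (SD, n = 3). That put Casp6 at the 51.5th percentile of tested genes by FPKM in NL, the 91.9th in Ly6Ghi and the 94.8th in Ly6Glow.

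Apaf1, the apoptosome scaffold, and its partner Casp9 were also higher in metastatic lung on the CPM scale, by amounts that depend on the scaling. Apaf1 was at 199, 198 and 203 CPM in Ly6Ghi, 182, 179 and 189.9 CPM in Ly6Glow and 71.4, 75.3 and 74.5 CPM in NL. Casp9 was at 25.3, 26.7 and 24.3 CPM in Ly6Ghi, 25.5, 25.4 and 22.03 CPM in Ly6Glow and 11.6, 13.4 and 12.2 CPM in NL. For both genes every library from metastatic lung lay above every NL library, while for Casp9 the Ly6Ghi and Ly6Glow libraries overlapped. The ratio of Apaf1 to Casp9 on the FPKM scale was 4.67 ± 0.272 in Ly6Ghi, 4.51 ± 0.514 in Ly6Glow and 3.53 ± 0.179 in NL.

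Casp2 and Casp8, the other initiators, differed from each other in pattern. Casp2 was at 24.8, 22.8 and 25.4 CPM in Ly6Ghi, 21.0, 18.5 and 22.4 CPM in Ly6Glow and 12.98, 11.6 and 10.7 CPM in NL, again with NL lowest. Casp8, the initiator of the death receptor pathway, was at 38.0, 38.7 and 37.6 CPM in Ly6Ghi, 33.4, 32.4 and 35.3 CPM in Ly6Glow and 39.5, 39.2 and 39.5 CPM in NL. On the CPM scale Casp8 was the member with its lowest libraries in Ly6Glow and its highest in NL. Xiap, the inhibitor, was at 154, 151 and 158 CPM in Ly6Ghi, 193, 182 and 191 CPM in Ly6Glow and 118, 143 and 126 CPM in NL. NL replicate 2, the library that stood apart, gave the highest NL value of Xiap, and the groups still did not overlap.

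**Figure D2:**
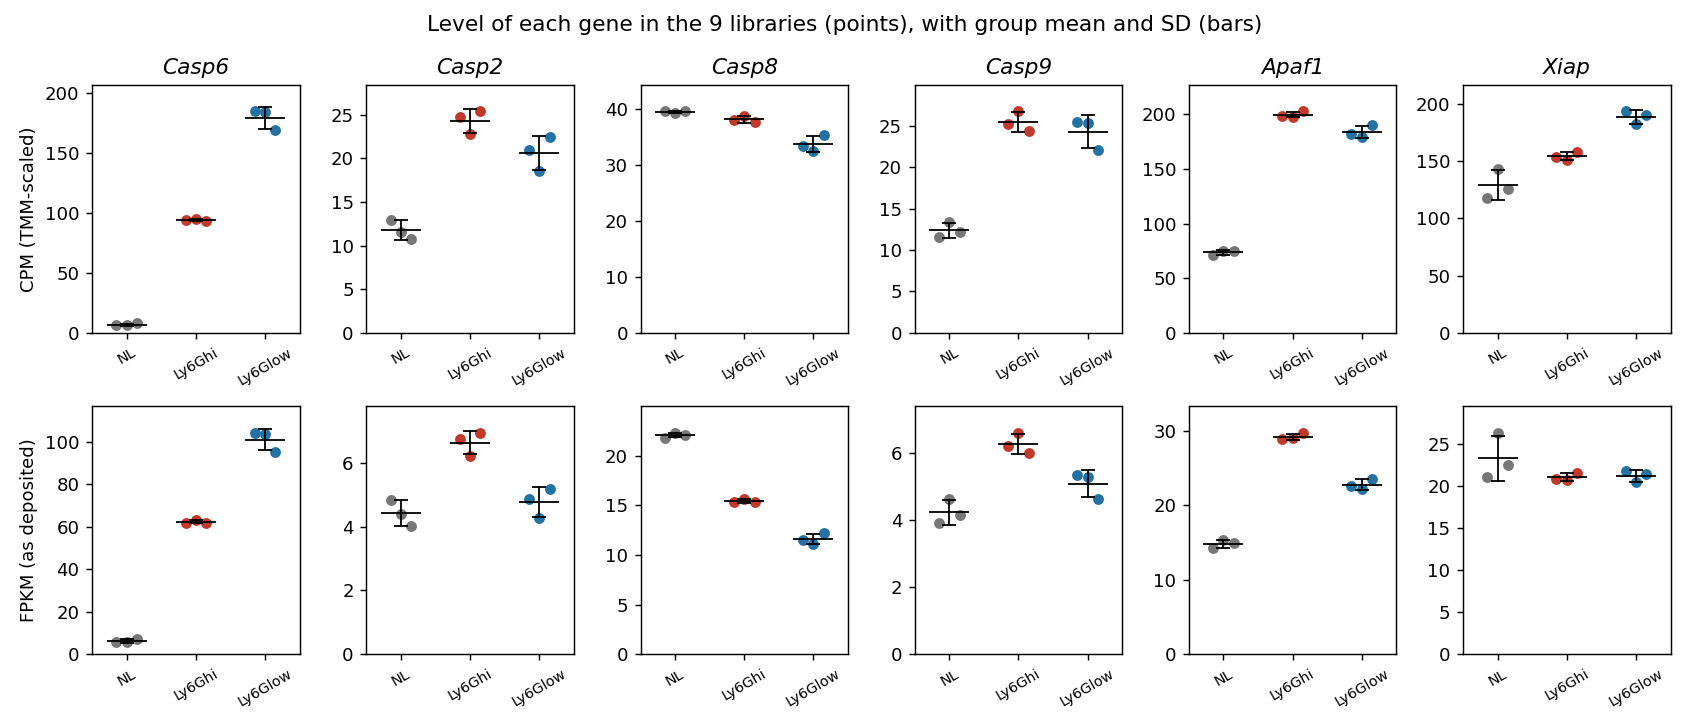
CPM scaled with TMM factors (upper row) and deposited FPKM (lower row) of the 6 genes in NL, Ly6Ghi and Ly6Glow; points are libraries, long marks group means and error bars the SD (n = 3). Casp6 steps from 6.90 CPM in NL to 93.8 CPM in Ly6Ghi and 179 CPM in Ly6Glow, while Xiap steps up in CPM but not in FPKM.

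The order of the 6 genes by FPKM changed between groups. In NL the order from the top was Xiap (23.3 ± 2.71), Casp8 (22.1 ± 0.228), Apaf1 (14.9 ± 0.542), Casp6 (6.33 ± 0.748), Casp2 (4.42 ± 0.410) and Casp9 (4.23 ± 0.361), where Xiap overlapped Casp8 and Casp2 overlapped Casp9. In Ly6Ghi it was Casp6, Apaf1 (29.2 ± 0.422), Xiap (21.1 ± 0.482), Casp8 (15.4 ± 0.214), Casp2 (6.63 ± 0.366) and Casp9 (6.27 ± 0.295), with only Casp2 and Casp9 overlapping. Ly6Glow had the order Casp6, Apaf1 (22.8 ± 0.725), Xiap (21.3 ± 0.713), Casp8 (11.6 ± 0.520), Casp9 (5.08 ± 0.403) and Casp2 (4.77 ± 0.466), with the same overlap of Casp2 and Casp9. Casp6 moved from the fourth place in NL to the first in both groups from metastatic lung.

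Across the 4 caspase genes Casp2, Casp6, Casp8 and Casp9, the summed FPKM was 37.04 ± 0.425 in NL, 90.7 ± 0.860 in Ly6Ghi and 122 ± 4.598 in Ly6Glow. The share of Casp6 in this sum was 17.1% ± 1.87 in NL, 68.8% ± 0.143 in Ly6Ghi and 82.4% ± 1.08 in Ly6Glow. The share of Casp8 went the other way, with 59.6% ± 0.535 in NL, 17.0% ± 0.0752 in Ly6Ghi and 9.49% ± 0.774 in Ly6Glow. The FPKM of Casp6 was 0.274 ± 0.0506 times that of Xiap in NL, 2.96 ± 0.0952 times in Ly6Ghi and 4.75 ± 0.311 times in Ly6Glow. These shares and ratios need no scaling between libraries. Since Casp6 was chosen for its level against NL, they are a description. Counts divided by FPKM, which track the transcript length used by the authors, gave Casp6 a relative length of 0.471 to 0.4728 in the 3 groups.

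**Figure D3:**
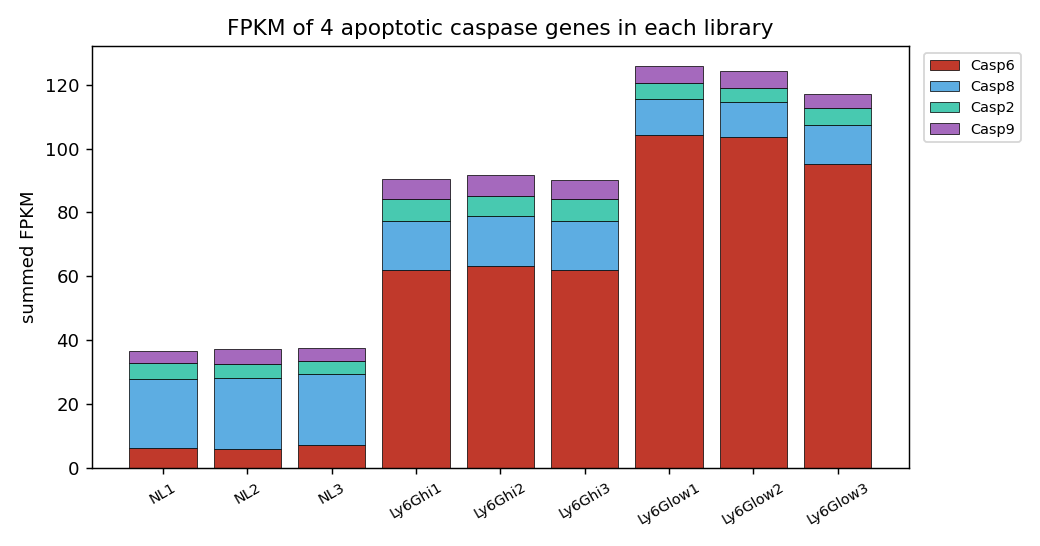
Stacked FPKM of 4 caspase genes in each of the 9 libraries (bars start at 0). The Casp6 part grows from 5.77 to 7.18 FPKM in the NL libraries to 61.9 to 63.2 FPKM in Ly6Ghi and 95.2 to 104 FPKM in Ly6Glow.

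The comparison of Ly6Glow with Ly6Ghi asks how the 2 neutrophil subsets of macrometastatic lung differ. It is not the contrast named for the choice of the genes, but the libraries of both groups entered that choice. The genes were also chosen with earlier results of these data known, so the p-values of this comparison are not independent support. Calls needed both a log2 fold change beyond 0.58 in size and a Benjamini-Hochberg adjusted p not above 0.05, from edgeR's quasi-likelihood test over all 14108 genes. Casp6 was higher in Ly6Glow by 0.93 on the log2 scale (SE 0.047, adjusted p = 1.93e-13), which is 1.91-fold, and was the only member called. Of all tested genes 25.2% were called, so 1 of 6 did not exceed the background.

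Xiap was 1.22-fold higher in Ly6Glow (log2 0.29, SE 0.053, adjusted p = 7.12e-05), below the fold threshold. Casp2, Casp8 and Apaf1 lay slightly lower in Ly6Glow, also within the fold threshold. Casp2 had a log2 value of -0.24 (SE 0.082, adjusted p = 0.018), Casp8 one of -0.18 (SE 0.055, adjusted p = 0.00977) and Apaf1 one of -0.12 (SE 0.037, adjusted p = 0.00811). Casp9 had -0.07 (SE 0.074, adjusted p = 0.459), with a 95% interval of -0.22 to 0.086. The libraries did not overlap for 2 members that were higher and 3 that were lower. Of all tested genes 62.1% did not overlap, 29% higher and 33.1% lower. These small values depend on the scaling. With DESeq2's size factors the adjusted p was 0.0814 for Casp2, 0.0978 for Casp8 and 0.221 for Apaf1, and on log2(FPKM + 1) with limma it was 0.901 for Xiap. The call of Casp6 held at 0.69 (library totals alone) and 0.685 (FPKM), but at a stricter log2 threshold of 1 Casp6 was not called.

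Against normal lung, the fitted log2 fold change of Casp6 was 3.76 (SE 0.067) in Ly6Ghi, or 13.6-fold, and 4.69 (SE 0.065) in Ly6Glow, or 25.9-fold. Both comparisons use the same 3 NL libraries. Ranked by log2 fold change, Casp6 was the 27th of 14108 genes in Ly6Ghi and the 8th in Ly6Glow. Among genes with a mean of at least 10 CPM in Ly6Ghi it was the 12th of 7051, between Ccr3 (3.86) and Mpo (3.74). Among those with at least 10 CPM in Ly6Glow it was the 2nd of 6649, between Saa3 (5.47) and Nos2 (4.44).

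The other members had smaller values against NL. Apaf1 had 1.44 (SE 0.038) in Ly6Ghi and 1.32 (SE 0.039) in Ly6Glow on the log2 scale. Casp2 had 1.05 (SE 0.082) and 0.81 (SE 0.088), and Casp9 had 1.04 (SE 0.075) and 0.97 (SE 0.079). Xiap had 0.26 (SE 0.052) and 0.55 (SE 0.052), while Casp8 had -0.05 (SE 0.050) and -0.23 (SE 0.053). In both comparisons the libraries did not overlap for 5 members higher and 1 lower, and nothing is read from this, since the contrast chose the genes. For Ly6Ghi 85.2% of all tested genes did not overlap (40.2% higher, 45% lower), and for Ly6Glow 86.8% (39.4% higher, 47.5% lower).

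The NL libraries had TMM factors of 1.298 to 1.324 against 0.8029 to 0.9504 in metastatic lung, so the values against NL move with the scaling. The median log2 fold change of all tested genes was -0.09 in Ly6Ghi and -0.16 in Ly6Glow with TMM factors, and -0.55 and -0.86 with library totals alone. Among all called genes, 41.8% were higher in Ly6Ghi and 41.3% in Ly6Glow with TMM factors, and 20.3% and 14.3% with library totals. Between Ly6Glow and Ly6Ghi these shares were 36.8% and 13.3%, and the medians -0.04 and -0.28. Xiap turned to -0.21 and -0.15 with library totals, and to -0.14 and -0.12 on log2(FPKM + 1). Casp8 went to -0.51 and -0.93 with library totals. Apaf1 went to 0.97 and 0.62 with library totals and to 0.93 and 0.59 on log2(FPKM + 1). Casp2 in Ly6Glow was left with 0.11 and 0.09 under these 2 scalings, and Casp9 with 0.27 and 0.22. In Ly6Ghi, Casp2 had 0.58 and 0.49 and Casp9 had 0.57 and 0.48. Set against the median of all genes under the same scaling, Casp6 lay 3.44 to 3.85 above it in Ly6Ghi and 4.29 to 4.85 above it in Ly6Glow over 6 scalings. The count scalings differ only by library factors, which this subtraction cancels, so they gave nearly the same value (3.85 and 4.85 for Casp6). The rest are FPKM with different pseudocounts, so the 6 are not separate checks. On this relative scale Xiap lay above the median in all 6 (0.19 to 0.37 in Ly6Ghi, 0.37 to 0.71 in Ly6Glow), as did Apaf1, Casp2 and Casp9. Casp8 lay between -0.17 and 0.04 of the median in Ly6Ghi and between -0.38 and -0.07 in Ly6Glow.

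**Figure D4:**
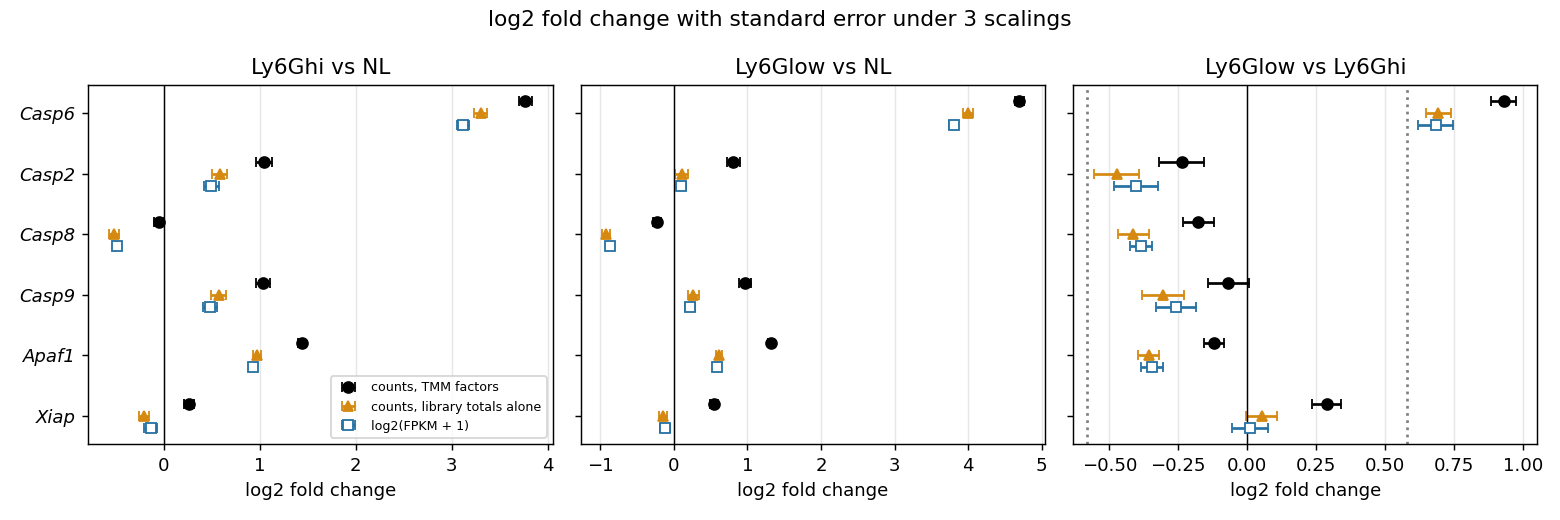
log2 fold change of the 6 genes in 3 comparisons with standard errors; black circles are counts with TMM factors, orange triangles counts with library totals alone and blue squares log2(FPKM + 1), and dotted lines mark the 0.58 threshold in the tested comparison. Casp6 stays at 3.12 or above in Ly6Ghi and at 3.80 or above in Ly6Glow under these 3 scalings, while Xiap lies on both sides of 0 against NL.

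Another 44 genes of the pathway were listed by role, and 43 of them were tested. The lists were drawn up with earlier results of these data known, and the genes named below were picked for the largest called changes. Their p-values are therefore not independent support. Between Ly6Glow and Ly6Ghi, 6 rose in Ly6Glow and 8 fell, where 9.29% of all tested genes rose and 15.9% fell, and the median log2 fold change of the 43 was 0.02 against -0.04 over all genes. Against NL, 10 were called higher and 14 lower in Ly6Ghi, and 17 higher and 14 lower in Ly6Glow. Of all tested genes 62.9% were called in Ly6Ghi (26.3% higher, 36.6% lower) and 69.5% in Ly6Glow (28.7% higher, 40.8% lower). The medians of the 43 were 0.13 and 0.23. The scaling sets many of the higher calls: under all 5 scalings tried here, 2 of 6 remained higher between the subsets, 3 of 10 in Ly6Ghi against NL and 2 of 17 in Ly6Glow against NL. Of the lower calls, 6 of 8, 11 of 14 and 13 of 14 remained.

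Among the other caspases, Casp4, an inflammatory caspase that senses lipopolysaccharide, was highest in Ly6Glow. It was at 125 ± 0.960 CPM in Ly6Ghi, 210.1 ± 11.6 CPM in Ly6Glow and 71.8 ± 1.44 CPM in NL. Casp4 rose in Ly6Glow over Ly6Ghi by 0.75 on the log2 scale (edgeR adjusted p = 9.36e-13), a call lost with library totals (0.51). Against NL it had 1.55 (adjusted p = 4.71e-19) in Ly6Glow, called under all 5 scalings, and 0.80 (adjusted p = 9.8e-14) in Ly6Ghi, a call lost with library totals (0.34). Casp12 was lower than in NL by a log2 fold change of -2.04 in Ly6Ghi and -1.998 in Ly6Glow, at no more than 4.36 CPM on average.

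Among the caspase substrates, Gsdme was far higher and Lmna far lower in metastatic lung. Gsdme, a gasdermin that opens membrane pores once cut by a caspase, was at 139 ± 1.21 CPM in Ly6Ghi, 141 ± 0.874 CPM in Ly6Glow and 15.1 ± 0.446 CPM in NL. Its log2 fold change against NL was 3.21 (edgeR adjusted p = 1.97e-23) and 3.23 (adjusted p = 1.6e-23). Lmna, the gene of the lamins A and C that Casp6 cleaves, went the other way, with 77.5 ± 0.638 CPM in Ly6Ghi, 37.6 ± 1.28 CPM in Ly6Glow and 247 ± 19.6 CPM in NL. Lmna is also abundant in epithelial, endothelial and fibroblast cells, whose markers were highest in NL, and their part in the Lmna values was not tested. Between the subsets Lmna fell in Ly6Glow (log2 -1.04), Lmnb2 fell by 1.81 (adjusted p = 1.17e-09) and Lmnb1 rose by 0.88 (adjusted p = 1.32e-16), so that the lamin genes did not move together. Of the 13 substrates and execution genes tested, 6 were higher and 3 lower in Ly6Ghi against NL, 7 and 4 in Ly6Glow against NL, and 1 and 3 between the subsets. Over all tested genes the shares were 26.3% and 36.6%, 28.7% and 40.8%, and 9.29% and 15.9% in the same order. Of the higher calls against NL in this list, only that of Gsdme held with library totals, in either group.

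Upstream signalling genes were mixed. Fas, the death receptor that activates Casp8, rose in Ly6Glow over Ly6Ghi from 41.3 ± 1.71 to 79.0 ± 2.05 CPM (log2 0.93, edgeR adjusted p = 6.74e-13). Pidd1, the scaffold that activates Casp2, fell by 1.41 (adjusted p = 0.00103), from the low levels of 1.18 to 0.442 CPM, a call lost on log2(FPKM + 1) (-0.28). Tradd, an adaptor of TNF receptors, was higher than in NL by 1.34 (adjusted p = 6.93e-13) in Ly6Ghi and 1.24 (adjusted p = 6.27e-12) in Ly6Glow, the latter not called with library totals (0.54). In this list of 10, 1 was higher and 3 lower in Ly6Ghi against NL, 5 and 2 in Ly6Glow against NL, and 1 and 1 between the subsets. The shares over all tested genes were 26.3% and 36.6%, 28.7% and 40.8%, and 9.29% and 15.9% in the same order. None of the higher calls of this list in Ly6Glow against NL held with library totals. Of 5 mitochondrial factors, Endog was lower in both groups against NL (log2 -1.92 and -2.11, under 2 CPM in every group), and Diablo, which relieves the block by Xiap, was called higher in Ly6Glow (0.63), a call lost with library totals (-0.07).

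In the inhibitor of apoptosis family, 9 genes with the Xiap antagonist Xaf1 were tested. Birc3 (cIAP2) rose in Ly6Glow over Ly6Ghi from 297 ± 1.88 to 509 ± 4.14 CPM (log2 0.77, edgeR adjusted p = 3.34e-15), and its call was lost with library totals (0.54). Birc5 (survivin), which also serves cell division, fell from 14.2 ± 0.322 to 3.15 ± 1.21 CPM (log2 -2.16, adjusted p = 6.51e-11). Markers of immature neutrophil granules (8 of 8 with counts) summed to 29538 to 29961 CPM in Ly6Ghi, 8960 to 9230 CPM in Ly6Glow and 4570 to 4806 CPM in NL. Birc5 was at 4.73 ± 0.273 CPM in NL. Ly6Ghi was thus highest in both, while Ly6Glow and NL stood in opposite order. The part of immature cells in the Birc5 values was not tested. Xaf1 was at 6.73 ± 1.11 CPM in Ly6Ghi, 10.4 ± 0.506 CPM in Ly6Glow and 27.1 ± 1.59 CPM in NL, and was lower than NL in Ly6Ghi by a log2 fold change of -2.01 (adjusted p = 5.2e-15). Naip6 had -2.95 in Ly6Glow against NL, but Naip genes are near-identical copies whose reads cannot be shared out with certainty.

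The 3 necroptosis genes, which act when Casp8 is blocked, were split as well. Mlkl, the pore-forming executor, fell in Ly6Glow against Ly6Ghi by 1.02 (edgeR adjusted p = 0.000348), from 3.50 to 1.73 CPM. Zbp1, a nucleic acid sensor, rose by 0.72 (adjusted p = 4.42e-10, not called with library totals at 0.49) but was lower in Ly6Ghi than in NL (-1.41, adjusted p = 1.12e-16). Ripk3, the kinase that phosphorylates Mlkl, was called higher in Ly6Glow against NL at 0.61 (adjusted p = 4.99e-09) and turned to -0.09 with library totals.

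**Figure D5:**
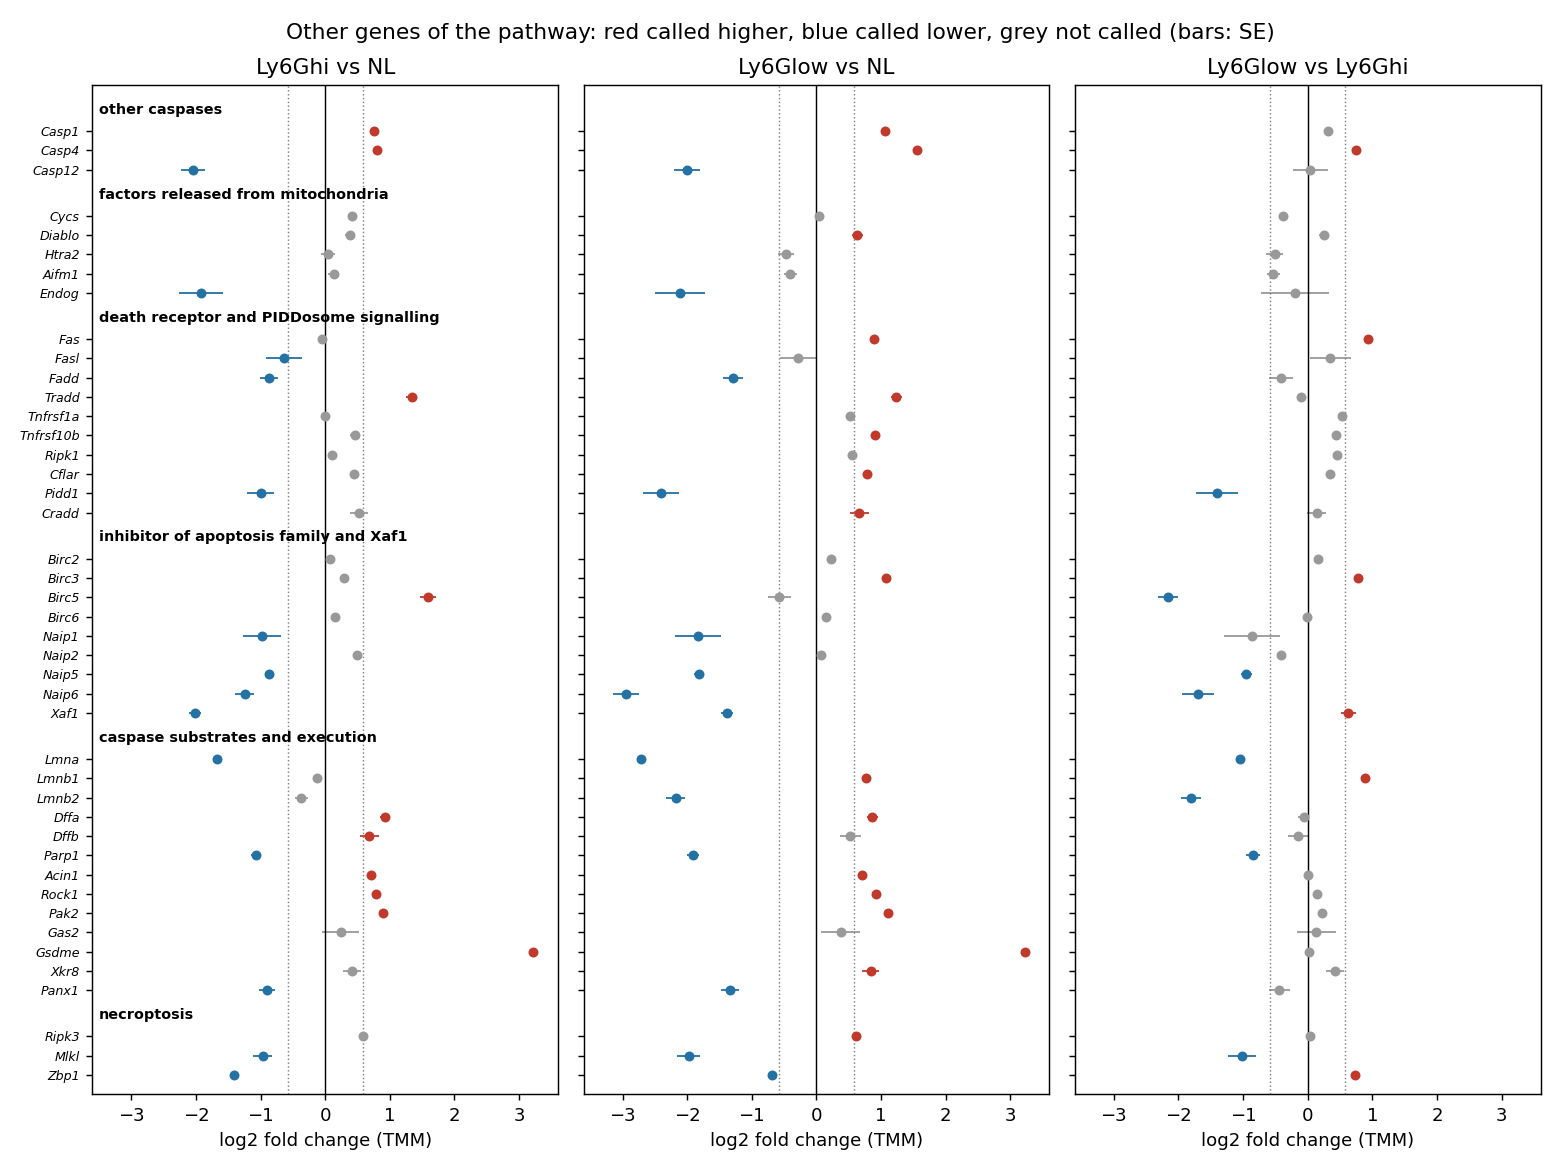
log2 fold change (TMM factors) of the 43 tested pathway genes in 3 comparisons, grouped by role, with standard errors; red points were called higher, blue lower and grey not called, and dotted lines mark 0.58. Gsdme lies furthest to the right against NL at 3.21 and 3.23, and Lmna, Naip6 and Pidd1 lie far to the left in Ly6Glow.

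The genes whose log2 CPM profile over the 9 libraries lay nearest to that of Casp6, by root-mean-square distance after centring, were Egln3 (0.215), Nos2 (0.282), Ggt1 (0.319), Teddm3 (0.34) and Stfa2 (0.341). Egln3, a prolyl hydroxylase of the hypoxia pathway, was at 93.8 ± 5.43 CPM in Ly6Ghi, 196 ± 4.00 CPM in Ly6Glow and 9.55 ± 0.833 CPM in NL. Nos2, the inducible nitric oxide synthase, was at 313 ± 7.66 CPM, 791 ± 17.7 CPM and 36.6 ± 0.708 CPM in the same order. Teddm3 was at most 3.88 CPM on average, and Stfa2 belongs to a family of close copies. The other members were far from Casp6 by this measure: Apaf1 was the 935th nearest, Casp9 the 1977th, Casp2 the 2474th, Xiap the 4299th and Casp8 the 7008th. The profiles were centred but not scaled, so the distance depends on the size of the differences as well as on their shape. A gene of similar shape but smaller range thus ranks far. Since Casp6 was chosen for its difference from NL, the nearest genes and these ranks are a description.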

How the data were processed

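Neutrophils were sorted, RNA was extracted with TRIzol and libraries were sequenced by BGI. The authors deposited estimated counts per gene and library, without normalization, and FPKM values normalized for transcript length and depth. Both tables list genes by NCBI Gene identifier and symbol; the build is mm10 per the labels, and the aligner and counter are not given in the sources used here. Of the estimated counts 37.9% were whole, and all were rounded. Of 22064 genes listed, 3739 were blank, 18325 had values and 14108 passed filterByExpr by group.

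Counts were fitted in R 4.3.3 with edgeR 4.0.16 (TMM factors, quasi-likelihood, all 9 libraries in 1 model by group), with Benjamini-Hochberg adjustment over all tested genes. Calls needed an adjusted p not above 0.05 and a log2 fold change beyond 0.58 in size. The study names DESeq2 with the same fold threshold. CPM are counts scaled by TMM factors, given as mean ± SD. The fit was tested on simulated data. limma 3.58.1 was used on log2(FPKM + 1) and DESeq2 1.42.0 as alternatives. The median coefficient of variation between replicates (BCV) was 0.0453, so that changes well under the fold threshold could be resolved between these libraries in abundant genes. Since pooling of mice is not stated, this spread may not be the spread between mice.

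The members and lists were chosen with earlier results of these data known. The genes named were the 6 members, from each pathway list and comparison the called gene with the largest rise and the largest fall, and the 5 genes nearest to Casp6; Ly6g and the genes ranked beside Casp6 were added after values were seen. Results of some further genes of the pathway are not reported here. Promoter and gene positions came from RefSeq and GENCODE tables of GRCm38, in which all 6 members were matched.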

Additional observations from a re-analysis of the deposited data

How the results depend on the processing

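All 21 alternatives to each member's comparison of Ly6Glow with Ly6Ghi kept the direction and the side of the call rule. The number of members called there was 5 with no fold-change threshold and 0 above a log2 fold change of 1, and 1 otherwise. Leaving out each library in turn kept it at 1, with Casp6 between 0.9053 and 0.9676.

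Against NL, Casp6 moved to 3.57 (upper-quartile factors), 3.30 (library totals), 3.12 (log2(FPKM + 1), with or without an FPKM minimum of 1) and 3.29 (log2(FPKM + 0.1)) in Ly6Ghi, and to 4.505, 3.99, 3.80 and 3.98 in Ly6Glow. Without 1 library it was 3.699 to 3.868 and 4.627 to 4.796. Xiap turned negative in Ly6Ghi with library totals (-0.2052), log2(FPKM + 1) (-0.1352, with or without the minimum) and log2(FPKM + 0.1) (-0.1404), and in Ly6Glow likewise (-0.1525, -0.1237 and -0.1285).

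Pathway genes called higher in Ly6Ghi against NL (10) became 3 with library totals, with the 3 FPKM settings and above a log2 fold change of 1, and 21 with no fold threshold. Those higher in Ly6Glow against NL (17) became 2 with library totals and the FPKM settings and 6 above a log2 fold change of 1. Those higher in Ly6Glow over Ly6Ghi (6) became 2 with library totals and the FPKM settings, 16 with no fold threshold and 0 above 1. Lower calls became 7 of 14 in Ly6Ghi against NL above 1. Between the subsets 8 lower calls became 15 with library totals, 13 with no fold threshold and 14 with log2(FPKM + 0.1). Leaving out 1 library gave 9 to 12, 16 to 18 and 5 to 6 higher calls, and 13 to 14, 14 to 15 and 8 to 10 lower calls, in the order Ly6Ghi against NL, Ly6Glow against NL and Ly6Glow against Ly6Ghi.

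Libraries that share a replicate number did not deviate together (correlations of -0.0683 to 0.0766), so the numbers were not taken to pair them. With a replicate block Casp6 was 0.9305 higher in Ly6Glow than in Ly6Ghi, 1 member was called and 3522 genes in all, against 3560 without it.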
